A study of Arabidopsis thaliana with 8 samples.

Results

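The response to abscisic acid (ABA) was followed in Arabidopsis plants that overexpress ThbZIP1 (OE), a bZIP transcription factor gene of the salt-tolerant shrub Tamarix hispida. The members are the arrays of OE genotype, which are 4 of the 8 arrays of the series. They comprise 2 arrays of OE seedlings labelled ABA (10 µM for 3 h) and 2 arrays of OE seedlings labelled H2O, which the methods call untreated. The remaining 4 arrays hold wild-type Columbia seedlings (WT), 2 labelled ABA and 2 labelled H2O, and are used here only to set the OE response beside that of WT. All seedlings were 4 weeks old and of Columbia background, and the OE plants were T3 homozygous. Roots and shoots were harvested and pooled by treatment, with different plants in each of 2 independent experiments. The paper's methods, in contrast, describe portions of a treatment's harvest as the biological replicates. How independent the 2 arrays of a group are is therefore not settled. The promoter that drives ThbZIP1, the number of transgenic lines and the hour of harvest are not given in the sources used here. No probe of the array carries the ThbZIP1 accession, so the overexpression was not measured here.

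RNA of each sample was hybridised with 1 dye to an Agilent Arabidopsis array of 43603 gene probes, and values are given as log2 signal relative to the 75th percentile of the array, written here as the relative log2 signal. On the 4 OE arrays 68.1% to 71.3% of probes were well above background, and the paired arrays correlated with r = 0.975 for OE ABA and r = 0.982 for OE water across probes. All 4 OE arrays lay on 1 slide and were scanned on 1 day, so the OE comparison is made within a slide. The WT arrays lay on 3 other slides and were scanned on another day. Genotype and slide or scan day thus cannot be told apart in any comparison of the OE arrays with the WT ones. The WT water arrays shared a slide and the WT ABA arrays lay on others, so treatment and slide cannot be told apart within WT. A WT water array (replicate 1) had 1148 outlier spots, against 6 to 24 on the other 7 arrays, and the fit drops that array for the genes whose spot was an outlier. Of the genes named below these are ABF3, DREB2A, GolS2, HVA22D, NIA2, PHT1;1, RAP2.6 and RPK1. A free-text description attached to the records disagrees with their titles, source names, genotype and treatment fields. It assigns the OE arrays labelled ABA to WT given water, and those labelled H2O to plants of another gene, AtbHLH112. The groups here follow the other fields. Genes that ABA is known to induce, among them HAI1, ABI2, NAC019 and HB-7, were higher on both OE arrays labelled ABA than on both labelled H2O.

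ABA is the hormone through which plants restrain growth and transpiration when water is short. It is bound by receptors of the PYR/PYL/RCAR family, and the bound receptors inhibit clade A protein phosphatases (PP2Cs), which otherwise hold SnRK2 kinases inactive. The freed SnRK2 kinases phosphorylate bZIP factors of the ABF/AREB/ABI5 group, and these bind ABA-responsive elements in front of genes for dehydrins, LEA proteins and other effectors. Components of the pathway are themselves ABA-responsive in Arabidopsis.

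Given ABA, the OE seedlings had far more transcripts higher than lower. Of 31265 probes tested, 533 (1.7%) were called higher and 112 (0.358%) lower in OE ABA than in OE water, together 2.06%. A call required an adjusted p under 0.05 in a limma fit over all 8 arrays (Benjamini-Hochberg over all tested probes) and a change of at least 2-fold. Read with 1 probe a gene, 335 of 19477 genes were higher (1.72%) and 83 lower (0.426%), and these shares are the background for every list that follows. The rises were also the larger changes. Their median was 2.13 on the log2 scale, against -1.71 for the falls, and 288 higher and 32 lower probes changed at least 4-fold, of which 59 and 5 changed at least 16-fold. Over all tested probes the median log2 change was -0.04 and the median standard error (SE) 0.22. For 110 of the higher probes neither OE water array was well above background, and for 21 of the lower probes neither OE ABA array was. Such changes are given as at least N-fold, which sets the bright group against the dim probe's signal or, where that is lower, against the weakest signal that counted as well above background on that array. These bounds hold for the scanner's subtracted signal only. Over the alternative settings, the log2 change was as low as 4.94 for TSPO, 4.30 for HSFA6B, 3.77 for AT5G50360 and 3.50 for PUB19. Each of these is smaller than the bound given below.

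**Figure D1:**
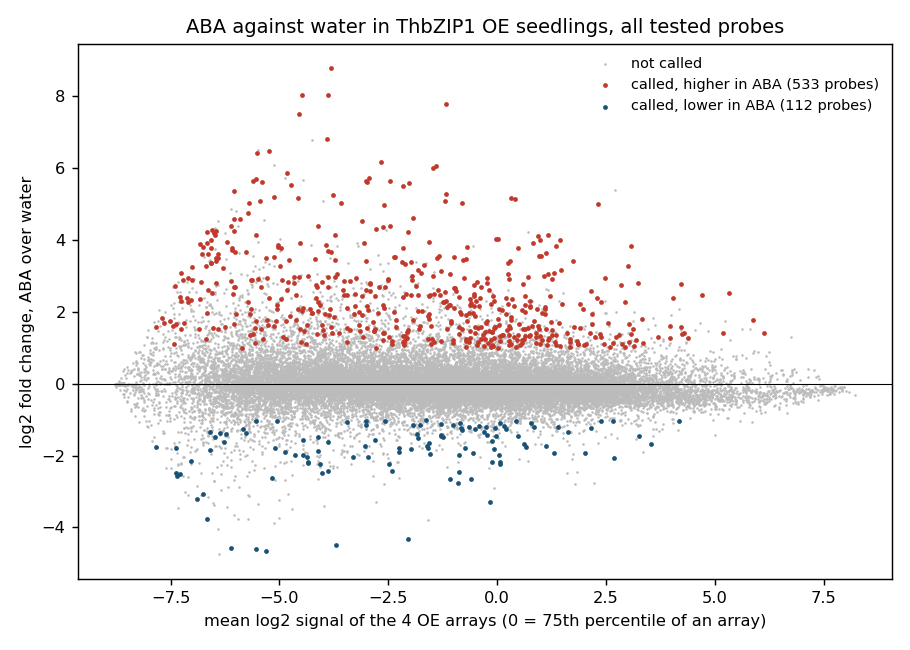
Mean relative log2 signal of each tested probe over the 4 OE arrays (horizontal axis) against its log2 change, OE ABA minus OE water (vertical axis), with probes called higher, called lower and not called in separate colours. Read with 1 probe a gene, the called genes well above background on all 4 OE arrays run up to 7.80 (AT3G03341) and down to -4.31 (PYL4). Points beyond them include probes dim in 1 group.

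The calls rest on 2 arrays a group, and the number of calls was sensitive to single arrays. It was 61 without OE water replicate 2, 123 without OE water replicate 1, 162 without OE ABA replicate 1 and 232 without OE ABA replicate 2, and 323 without either WT ABA array, which enter through the shared estimate of the spread. With normexp background correction in place of the scanner's subtracted signal, 117 probes were called, 114 higher and 3 lower, so that most falls did not pass there (the median change of all probes was then 0.23). With the replicate number, which was not shown to pair samples, as a block, 1 of the calls remained. Of the 148 called genes named below or held in a list, 23 passed whichever of the 8 arrays was left out. These were AFP1, HAI1, DIP2, LBD1, PYL4, AT1G76240, TSPO, HSFA6B, AT5G50360, PUB19, AT3G46880, ABI2, AFP3, ABF3, NAC019, NAC032, HB-7, HB-12, BOA, COR27, PUB18, GBF3 and MYB2. Every other call described here is lost when at least 1 of the arrays is left out. Second probes of PKS2, GH3.9, PCL1, AT3G54500 and BZO2H3, all called below, changed with the same sign but did not pass.

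The ABA receptors formed the clearest group of repressed genes. Of 14 PYR/PYL genes, 9 were tested, of which 4 fell and none rose, with a median log2 change of -1.14 over the 9, against -0.06 over all 19477 tested genes. PYL4, which encodes one of the receptors of monomeric type, read -4.31 and -4.11 on the OE ABA arrays, against 0.24 and -0.03 on the OE water arrays. Among the called genes that were well above background on all 4 OE arrays it fell the most, with a change of -4.31 on the log2 scale (SE 0.20, adjusted p = 0.00388). PYL6, its close relative, read -8.22 and -7.47 with ABA, where it was not well above background, against -3.45 and -3.03 in water, a fall of at least 9.44-fold (adjusted p = 0.0127). PYL5 read -3.80 and -3.48 with ABA, against -1.0 and -1.40 in water (log2 change -2.44, SE 0.25, adjusted p = 0.0133). A second PYL5 probe fell by a like amount, -2.27, but did not pass the test (adjusted p = 0.53). PYL1, a receptor of dimeric type, changed less, with -1.56 and -1.60 against -0.54 and -0.32 (log2 change -1.14, adjusted p = 0.0231). In each of these 4 genes both ABA arrays lay below both water arrays. The OE groups were free of overlap in this sense, in either direction, for 48.6% of all tested genes and for all 645 called probes. The lack of overlap thus adds nothing to the calls. PYR1 (-0.95, adjusted p = 0.0898) and PYL7 (0.42) did not pass the test. With any 1 of the OE arrays left out, 1 or 2 of the 4 calls remained, and with normexp background correction none. Over the alternative settings the smallest log2 change was -2.30 for PYL4, -1.18 for PYL5 and only -0.28 for PYL6.

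The clade A PP2Cs, the phosphatases that these receptors inhibit, moved the other way. Of 7 tested, 6 rose and none fell, with a median log2 change of 2.80. HAI1 read 1.73 and 1.33 on the OE ABA arrays, against -5.12 and -3.82 on the OE water arrays (log2 change 6.0, SE 0.47, adjusted p = 0.00615), a 64.0-fold rise. HAI2, not well above background on all 4 OE arrays, read 0.21 and -0.35, against -5.96 and -5.65 (5.73, SE 0.69, adjusted p = 0.0203). The HAI phosphatases are named for their strong induction by ABA. ABI1, ABI2, HAB1 and PP2CA rose by 2.27, 2.81, 2.24 and 2.80 on the log2 scale. For ABI2 the arrays read 1.13 and 1.22 with ABA, against -1.42 and -1.85 in water (adjusted p = 0.00482). PP2CA read 4.55 and 4.71, against 1.83 and 1.83 (adjusted p = 0.00855). HAB2 passed the threshold on p but changed by less than 2-fold (0.84, adjusted p = 0.0366). Without OE water replicate 2, 2 of the 6 calls remained, and without any other single OE array 4.

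None of the 10 SnRK2 kinase genes tested was called (1 higher and 1 lower at an unadjusted p under 0.05 and 2-fold with limma, which 4.66% of all tested genes passed upward and 2.22% downward), and their median log2 change was 0.25. OST1, the SnRK2 kinase of guard cells, changed by 0.90 (adjusted p = 0.177), and SNRK2.7 by 2.85 (adjusted p = 0.0501). Among the bZIP factors of the ABF group and the AFP proteins, which bind ABI5 and limit its action, 7 of 12 rose and none fell (median 1.47). AFP1 read 1.64 and 1.61 with ABA, against -4.33 and -4.54 in water (log2 change 6.06, SE 0.19, adjusted p = 0.00201). A second AFP1 probe, near background, did not pass. AFP3 read 3.1 and 2.88, against -1.09 and -0.93 (4.0, adjusted p = 0.00471), and AFP2 and its relative TMAC2 rose by 1.41 and 3.00. Of the ABFs, ABF3 read 2.82 and 2.87, against -0.08 and -0.40 (3.08, SE 0.17, adjusted p = 0.00570). ABF2 rose by 1.52 and ABF4 by 1.03 (adjusted p = 0.0432), whereas ABF1 (1.09, adjusted p = 0.0594) and ABI5 (2.78, adjusted p = 0.0993) did not pass. With 1 OE array left out, 3 of the 7 calls remained in each case.

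**Figure D2:**
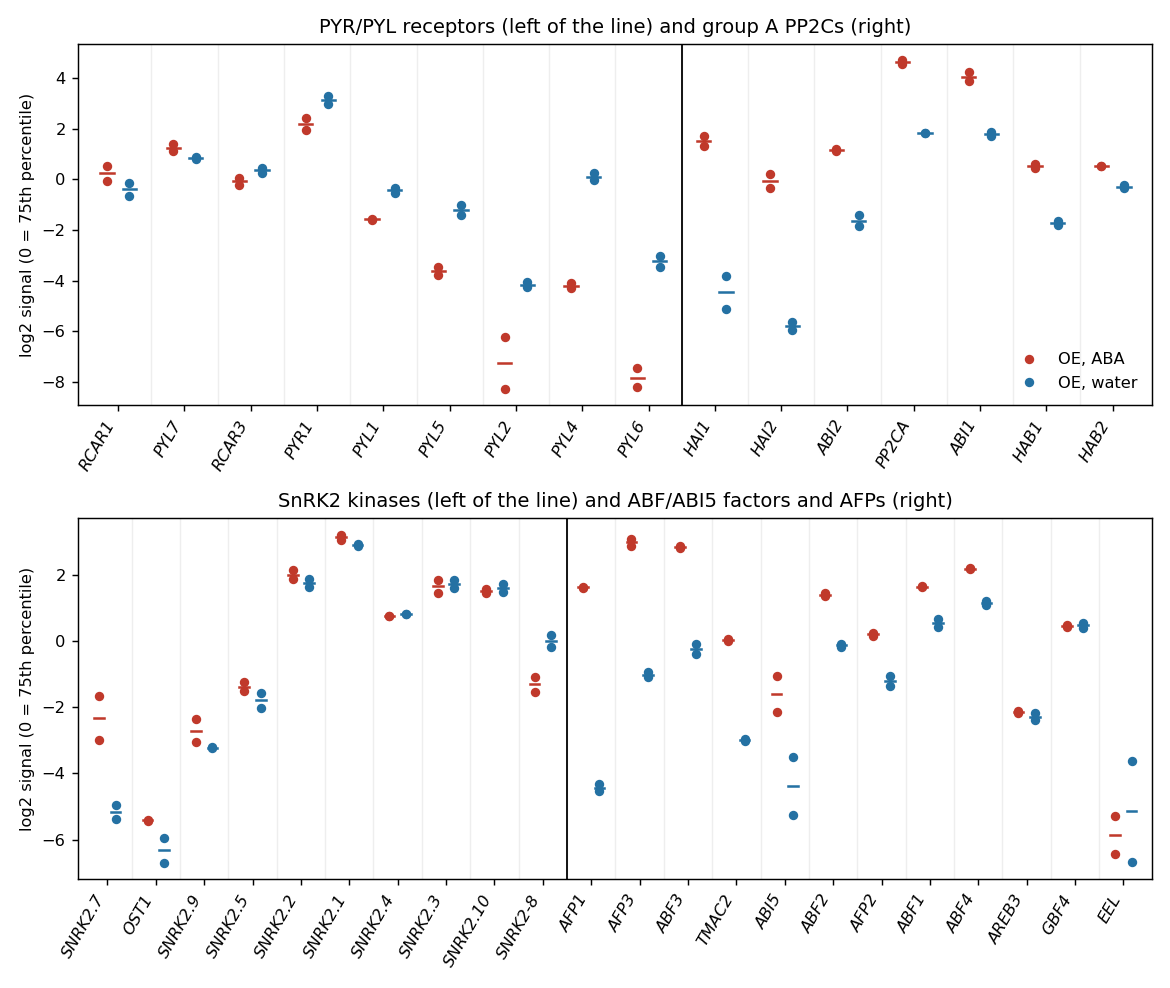
Relative log2 signal (vertical axis) of ABA receptors and clade A phosphatases (upper panel) and of SnRK2 kinases and bZIP/AFP genes (lower panel) on the 4 OE arrays, with OE ABA left of OE water; each point is 1 array and each tick the mean of the group. PYL4, PYL5 and PYL6 lie lower with ABA and HAI1, ABI2, AFP1 and ABF3 higher, with no overlap between the OE groups, as for every called probe.

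Genes for making, breaking down and moving ABA held 1 call. Of 14 tested, none fell and 1 rose, the ABA exporter gene ABCG25 (-0.42 and -0.77 with ABA, against -2.44 and -2.62 in water, log2 change 1.93, adjusted p = 0.00725). NCED3, which encodes the rate-limiting step of ABA synthesis under drought, changed by 1.62 (adjusted p = 0.0645), and the ABA 8'-hydroxylase genes CYP707A1 and CYP707A2, which start its breakdown, by 2.46 and 1.38, none of them called. Other signalling genes, chosen after their values were seen, were called higher as well. MAPKKK18, a kinase gene of the ABA-activated MAP kinase cascade, rose by 5.03. The receptor kinase genes RPK1 and ARCK1 rose by 2.04 and 2.44, and the E3 ligase genes PUB18, AIRP1 and AIRP2, known for roles in ABA responses, by 2.61, 2.99 and 2.08. PUB19, the partner of PUB18, was not well above background in water (-0.99 and -0.62 with ABA, against -8.28 and -8.36), a rise of at least 51.3-fold (adjusted p = 0.00326).

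Most of the effector genes rose. All 24 ABA effector genes (dehydrins, LEA, COR and RD genes) had a higher mean with ABA in OE, against 42.4% of all tested genes, and 15 passed the test, with a median log2 change of 2.52 over the 24. LTI30, a dehydrin, read 3.18 and 2.79 on the OE ABA arrays, against -1.88 and -2.46 on the OE water arrays (log2 change 5.15, SE 0.45, adjusted p = 0.00829). ERD10, another dehydrin, was abundant in both groups, with 6.57 and 6.60 against 4.21 and 3.93 (2.52, SE 0.18, adjusted p = 0.00570). The cold-regulated genes COR15A, COR15B and COR47 rose by 3.84, 2.48 and 1.76, and RD20, which encodes a caleosin, by 3.28 (adjusted p = 0.0424). TSPO, a membrane protein gene induced by ABA and salt, read 0.66 and 0.48 with ABA, against -7.64 and -8.79 in water, where it was not well above background, a rise of at least 133-fold (adjusted p = 0.00471). The seed-type LEA genes EM1, GEA6 and LEA4-5 and the gene LTI65 (RD29B) were likewise dim in OE water, and rose by at least 15.5, 4.84, 14.8 and 3.74-fold. Alcohol dehydrogenase, ADH1, rose by 4.15 (2.86 and 3.64 against -0.61 and -1.18, adjusted p = 0.00885).

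Some of the best-known ABA markers did not pass the threshold with the probe read here, which is the one of highest mean signal. LTI78 (RD29A) read 5.73 and 5.09 with ABA, against -0.56 and 0.57 in water, a log2 difference of 5.41 with an SE of 0.95 (adjusted p = 0.0522), whereas a second LTI78 probe was called higher (5.50, adjusted p = 0.0200). RAB18 differed by 2.53 (adjusted p = 0.0879), KIN1 by 1.52 (adjusted p = 0.239) and RD22 by 1.13 (adjusted p = 0.105). Of the HVA22 genes, which encode ABA-induced membrane proteins, HVA22B, HVA22D and HVA22E rose by 3.72, 2.13 and 2.31, and the other 2 tested did not pass. Without OE water replicate 2, 1 of the 15 effector calls remained, and without any other single OE array 5 to 7. None of the 3 HVA22 calls remained without any 1 of the OE arrays.

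Transcription factor genes of the ABA and drought responses rose in several families. Of 18 NAC genes linked to stress and senescence, 6 rose, none fell, and the mean of every one was higher with ABA (median 1.76). NAC019 read 3.11 and 3.79 on the OE ABA arrays, against -0.62 and -0.47 on the OE water arrays (log2 change 4.0, SE 0.25, adjusted p = 0.00475). RD26, a close relative, read 3.27 and 3.23, against -0.51 and -0.63 (3.82, adjusted p = 0.00671). NAC032, NAC047, ATAF1 and NAC102 rose by 3.56, 2.44, 1.76 and 1.61. Of 15 homeodomain-leucine zipper genes, 3 rose and 1 fell. HB-12, which ABA is known to induce, read 3.51 and 3.39 with ABA, against 0.11 and -0.03 in water (log2 change 3.41, SE 0.19, adjusted p = 0.00471). Its relative HB-7 read 1.71 and 1.82, against -1.21 and -1.36 (3.05). HAT22 rose by 1.13, whereas HAT1 fell by 1.49 on the log2 scale (adjusted p = 0.0226). Without any 1 OE array, 2 or 3 of the 6 NAC calls remained, and the HAT1 call did not.

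Of 8 CBF/DREB genes, which act in cold and dehydration responses, 4 rose. CBF1 read 0.36 and -0.25, against -4.61 and -3.74 (log2 change 4.23, adjusted p = 0.0149). DREB1A (CBF3), already expressed in water, read 3.40 and 3.48, against 0.82 and 0.88 (2.59, adjusted p = 0.00615), and CBF2 and DREB2A rose by 1.88 and 2.18. Without OE water replicate 1 or 2, none of these 4 calls remained. Some factors were not well above background in OE water. HSFA6B, a heat shock factor gene that acts downstream of ABA, read -0.21 and 0.49 with ABA, against -7.88 and -7.93 in water, a rise of at least 98.7-fold (adjusted p = 0.00471), and MYB74 rose by at least 37.8-fold. Chosen after their values were seen, HSFA6A, MYB2, MYB102 and MYB121 were also dim in OE water, with rises of at least 4.89, 8.74, 7.64 and 13.1-fold. HSFC1 (3.42), MYB112 (2.99), the ERF genes RAP2.6 (at least 24.2-fold) and ABR1 (2.95), and the G-box binding bZIP genes GBF3 (3.94) and GBF2 (1.49) were called higher too. Of 9 tested heat shock genes 2 rose, HSFA6B and HSP70 (1.46), and the median was 0.07.

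Outside the gene lists, the largest rises among genes measured in both OE groups were led by AT3G03341, which read 2.64 and 2.82 with ABA, against -5.36 and -4.78 in water (log2 change 7.80, SE 0.58, adjusted p = 0.00585). PDC1 (AT4G33070), the pyruvate decarboxylase that precedes alcohol dehydrogenase in ethanolic fermentation, read -0.51 and 1.25, against -4.87 and -5.68 (5.64, adjusted p = 0.0149). Genes known to respond to low oxygen and chosen after their values were seen also rose, namely the haemoglobin gene HB1 (2.08), LBD41 (2.47) and the ACC oxidase gene ACO1 (2.58). The sucrose synthase gene SUS3, chosen likewise, rose by 2.78. DIP2 (5.60), AT2G37870 (5.29), AT2G47780 (5.18), AT4G25433 (4.99), the receptor kinase gene FRK1 (4.60), LBD1 (4.53) and the F-box gene EDL3 (4.37), a regulator of ABA responses, complete the 15 largest rises together with 2 probes with no locus tag (5.09 and 5.05) and AT5G17460. The AT5G17460 probe rose by 5.01, but 2 other probes of that locus changed by 0.83 and 0.48. AT5G50360 rose by at least 63.4-fold. Further LEA genes chosen after their values were seen, LEA18, AtLEA4-1 and ECP63, rose by at least 4.23, 3.47 and 22.9-fold, and E12A11 (MFT), which acts in seed germination, by at least 13.9-fold. Genes of seed storage were not among them. None of the 6 seed markers was tested, and their summed linear signal was 0.0181 and 0.0254 on the OE ABA arrays, against 0.0984 and 0.0212 on the OE water arrays.

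Evening genes of the circadian clock rose with ABA in OE. In the plant clock, the morning factors CCA1 and LHY repress evening genes such as TOC1 and ELF4, which in turn hold down the morning genes. Of 11 evening genes, 8 rose and none fell (median 1.22). COR27, a cold- and clock-regulated gene, read 0.79 and 0.77 on the OE ABA arrays, against -2.61 and -2.90 on the OE water arrays (log2 change 3.54, SE 0.24, adjusted p = 0.00523). ELF4 read 2.09 and 2.77, against 0.04 and -0.04 (2.43, SE 0.25, adjusted p = 0.0133). AT4G33980, BOA, TOC1, PCL1 (LUX), FKF1 and PRR3 rose by 2.62, 2.2, 1.26, 1.22, 1.21 and 1.12. COL9 and BBX8, chosen after their values were seen, rose by 1.80 and 1.19. Of 13 morning genes 1 fell and none rose (median -0.91, with 10 of the 13 means lower). The fall was that of AT3G54500 (LNK2), a co-activator of evening genes, with 0.02 and 0.47 against 1.47 and 1.42 (-1.20, adjusted p = 0.0346). LHY read -4.67 and -5.10 with ABA, against -3.75 and -4.10 in water, but did not pass (-0.96, adjusted p = 0.0845), and neither did CCA1 (-0.96, adjusted p = 0.165). The highest change of a morning gene was 1.92, not called. At an unadjusted p under 0.05 and 2-fold with limma, 1 morning gene was higher and 3 were lower.

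In WT the same clock genes had other levels and none was called, where 0.621% of all tested genes were called higher and 0.252% lower by limma. At an unadjusted p under 0.05 and 2-fold 1 of the 24 passed, as did 6.16% of all tested genes in WT. The median change of the 11 evening genes was -0.24 in WT, and that of the 13 morning genes 0.55. Treatment and slide cannot be told apart in these WT values. COR27 changed by 0.01 in WT, where neither ABA array and 1 of the water arrays had it well above background, and ELF4 by 0.20. ELF4 read -4.44 and -4.08 in WT ABA, against -4.47 and -4.44 in WT water, far below its OE levels, and LHY read 1.32 and 1.37 in WT ABA, against 0.47 and 0.31 in WT water, far above them. The genotype by treatment interaction did not pass for COR27 (adjusted p = 0.0973) or ELF4 (adjusted p = 0.161) with the 75th percentile scaling. With quantile normalization it passed for COR27 (log2 difference of the responses 3.70, adjusted p = 0.0469) and for AT4G33980 (2.86, adjusted p = 0.0469). Clock phase moves with the hour of harvest, which is not given, and its part in these values was not tested. Without OE water replicate 2, 2 of the 8 evening calls remained, and without any other single OE array 3 or 4.

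**Figure D3:**
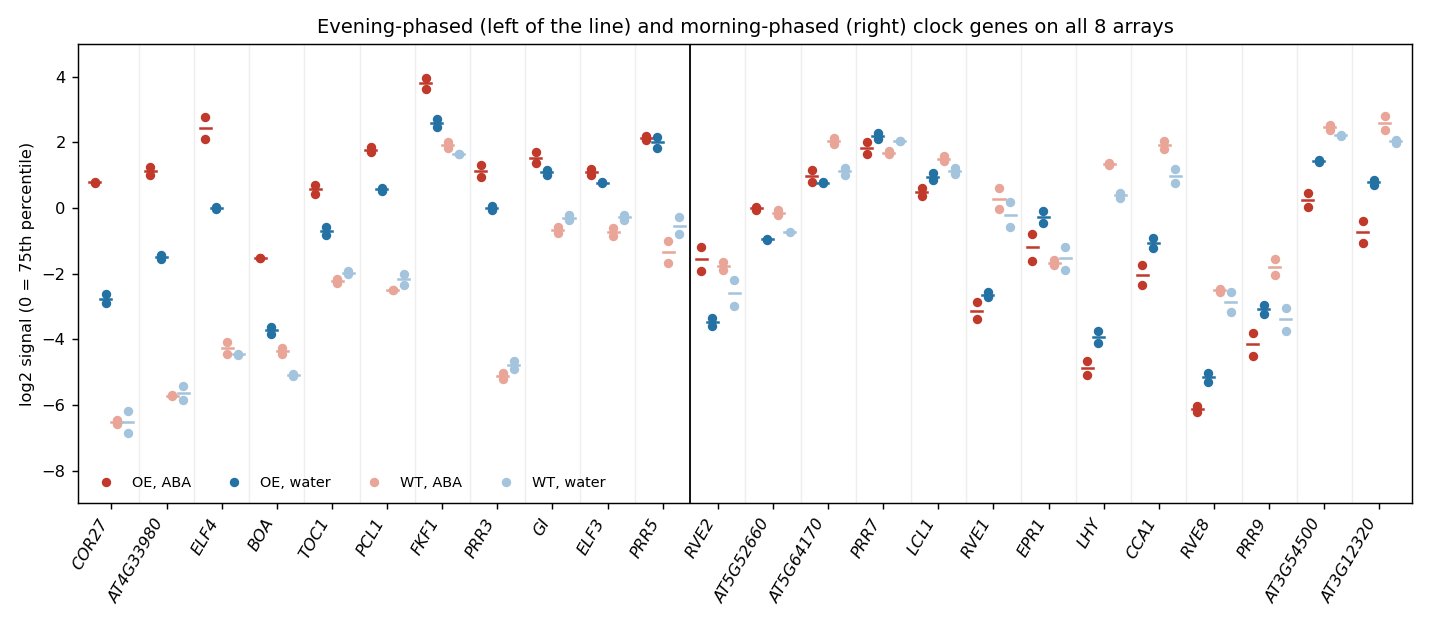
Relative log2 signal (vertical axis) of evening and morning clock genes on each of the 8 arrays, with OE ABA left of OE water and then WT ABA left of WT water; each point is 1 array and each tick the mean of the group. COR27 and ELF4 are higher in OE ABA than in OE water, while LHY lies far lower in all 4 OE arrays than in the 4 WT arrays.

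The other stress and hormone lists held few calls. The zinc finger genes ZAT6, STZ and ZF2, from a list of 15 early stress and touch genes, rose by 2.95, 2.00 and 1.93. Of 19 WRKY genes 1 rose (WRKY6, 1.41; a second WRKY6 probe did not pass, and a second probe of WRKY53 did, with 1.48), of 24 jasmonate genes 1 rose (JAZ12, 1.14), and of 16 ethylene and defensin genes 1 rose, the ACC synthase gene ACS2, by at least 8.77-fold. ERF1 (2.82, adjusted p = 0.0763) and JAZ5 (1.69, adjusted p = 0.379) did not pass. None of 18 salicylate genes was called by limma (0 at an unadjusted p under 0.05 and 2-fold too) and their median was -0.01. IOS1, a receptor-like kinase gene of immunity, and CYP71A13, of camalexin synthesis, both chosen after their values were seen, were called higher (2.69, and at least 2.28-fold). Of 16 genes of redox and glutathione transferase function, GSTU4 (3.45) and GSTF6 (2.21) rose. Of 10 gibberellin genes, the receptor gene GID1B (1.17) and GA2OX6 (2.02), which inactivates gibberellins, rose, and GA2OX7, of the same enzyme family, differed by 6.10 without passing (adjusted p = 0.0628).

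Among genes of compatible solutes, GolS2, a galactinol synthase gene of raffinose synthesis, rose by 2.39 (adjusted p = 0.0234), 1 of 12 tested. GolS4 (3.07, adjusted p = 0.0993) and the proline synthesis gene P5CS1 (1.62, adjusted p = 0.0919) did not pass, though a second P5CS1 probe was called higher (2.60, adjusted p = 0.0301). No gene was called in starch metabolism (19 tested, median 0.06), wax and cuticle (14, median 0.29), flavonoid synthesis (19, median 0.57), glucosinolate synthesis (20, median 0.23) or the sugar starvation list (14, median 0.25). At an unadjusted p under 0.05 and 2-fold with limma, these lists held 0, 2, 1, 0 and 3 genes in the same order. Of these, the flavonoid gene was lower, 1 wax and cuticle gene was higher and 1 lower, and the 3 starvation genes were higher. In flavonoid synthesis DFR differed by 3.93 (adjusted p = 0.429), and in the starvation list DIN11 by 3.60 (adjusted p = 0.143).

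**Figure D4:**
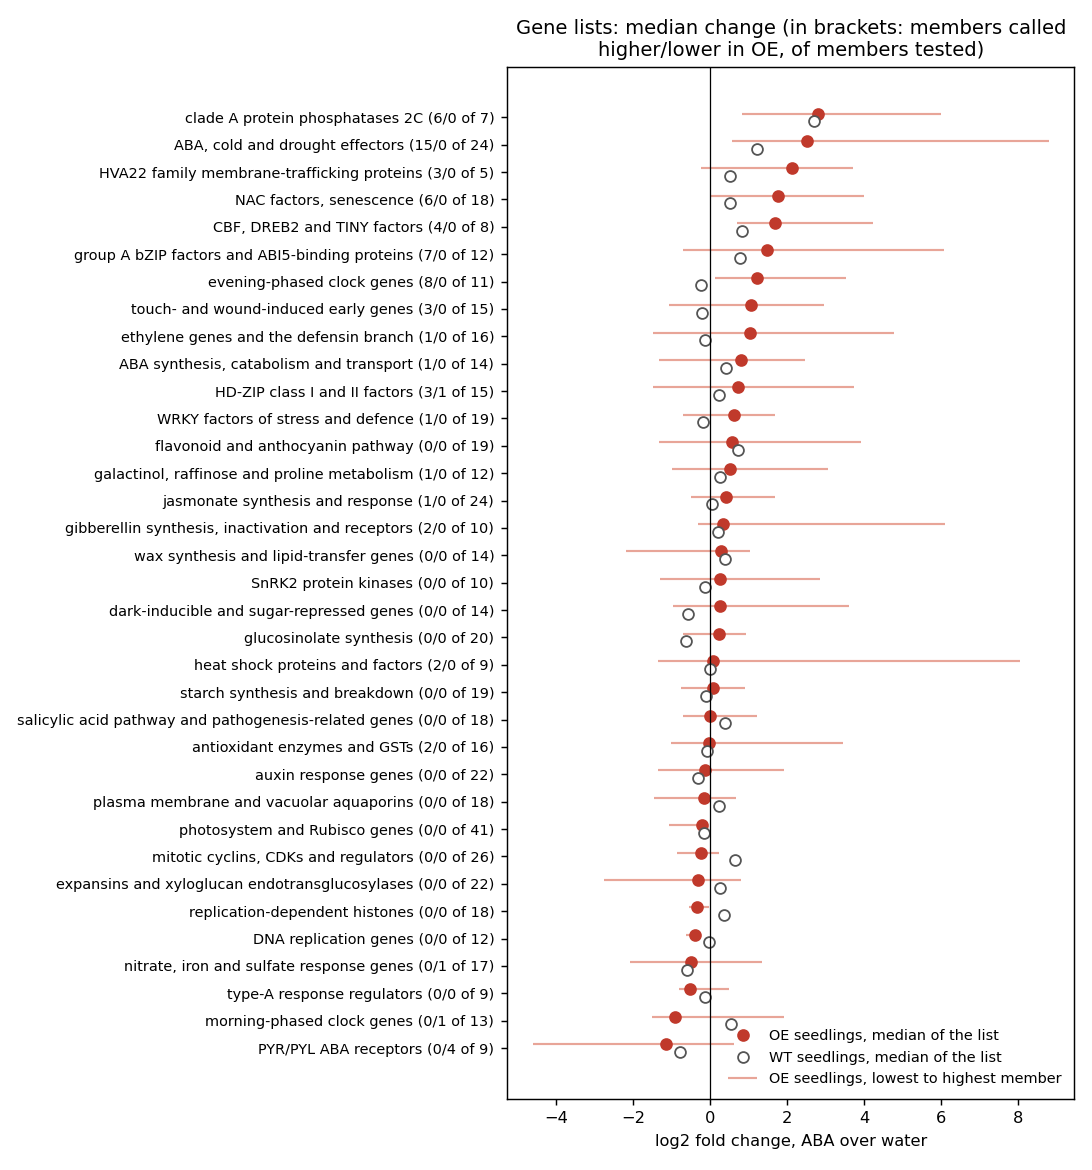
Log2 change, OE ABA minus OE water, for each gene list (horizontal axis; 1 list per line). Filled points are OE medians, lines run from the lowest to the highest member in OE, open points are WT medians, and brackets give the members called higher and lower of those tested. The organ marker and reference gene lists are not drawn. Of the lists drawn, the OE median was highest for the PP2Cs (2.80) and lowest for the receptors (-1.14).

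Several lists of growth and photosynthesis genes leaned down in OE without a call. All 41 photosystem and Rubisco genes had a lower mean with ABA in OE, against 57.6% of all tested genes, but the median change was only -0.22 and none was called (1 lower at an unadjusted p under 0.05 and 2-fold with limma). LHCB2.3 had the largest difference of them (-1.07, adjusted p = 0.132). These values are of 1 probe a gene. A further probe of PSAD-1 (0.41) and of LHCB4.1 (0.66) was higher with ABA without a call, while the remaining probes of both genes were lower. All 12 replication genes (median -0.40) and all 18 histone genes (median -0.34) also had lower means, as had 23 of 26 cell cycle genes (median -0.24), and none of these was called by limma (0 at an unadjusted p under 0.05 and 2-fold). Genes of such lists are known to be regulated together and are not independent of each other. The OE groups were free of overlap for 16 photosystem, 5 replication, 5 histone and 1 of the cell cycle genes, against 48.6% of all tested genes. With ABA in WT, the mean was higher for 18 histone (median 0.35), 25 cell cycle (0.65), 5 replication (-0.03) and 4 photosystem genes (-0.15). Cell wall loosening genes (22 tested, median -0.30), with EXPA1 at -2.76 (adjusted p = 0.0539), response genes of cytokinin (9, median -0.52) and auxin (22, median -0.14), and aquaporins (18, median -0.17) held no call, and at an unadjusted p under 0.05 and 2-fold with limma they held 4, 0, 4 and 0 genes. Of these, the 4 cell wall genes were all lower, and of the auxin genes 2 were higher and 2 lower. The 10 reference genes of stable expression, none of them called by limma (0 at an unadjusted p under 0.05 and 2-fold), had a median of -0.14.

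Most lower genes, like most higher ones, lay outside the gene lists, which hold 580 of the 19477 tested genes. The lists held 8 of the 83 lower genes (4 of them receptors) and 66 of the 335 higher ones. They were chosen with earlier results of these data known, so these counts are descriptions. COL2, a CONSTANS-like B-box gene, read -3.05 and -1.77 on the OE ABA arrays, against 0.11 and 0.35 on the OE water arrays (log2 change -2.64, SE 0.41, adjusted p = 0.0366). STH, a B-box gene of light signalling, read -1.45 and -0.97, against 1.0 and 0.96 (-2.19, SE 0.30, adjusted p = 0.0292). BBX16, JAC1, which acts in chloroplast movement, PKS2, of phototropin signalling, and RUP2, of ultraviolet signalling, fell by 1.81, 1.47, 1.34 and 1.12 on the log2 scale, and were chosen after their values were seen. AT2G15020 read -2.08 and -1.54, against 1.65 and 1.31 (-3.29, SE 0.40, adjusted p = 0.0205).

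NIA2, the main nitrate reductase gene of leaves, was abundant and read 1.52 and 1.77 with ABA, against 3.89 and 3.55 in water (log2 change -2.07, SE 0.19, adjusted p = 0.0159). In WT it changed by -1.07, a value for which the fit drops WT water replicate 1. It was the only call among 17 nutrient genes. GSR2, a cytosolic glutamine synthetase gene chosen after its values were seen, fell by 1.04, while a second probe of it read -0.03. TRY, a repressor of trichome formation, read -3.87 and -3.33, against -1.12 and -1.60 (-2.24, SE 0.26, adjusted p = 0.0187). The bZIP genes bZIP3 (-2.23) and, chosen after its values were seen, BZO2H3 (-1.10) were lower as well. So were the small auxin upregulated RNA gene AT2G21220 (SAUR12, -2.18) and, chosen in the same way, the auxin conjugation family gene GH3.9 (-1.73), the cytokinin oxidase gene CKX4 (-1.64), the arabinogalactan protein gene FLA9 (-1.67), the xylosidase gene BXL2 (-1.74), the carbonic anhydrase gene ACA1 (-1.77), the acid phosphatase gene PAP16 (-1.57) and MYB30 (-1.20). The receptor-like kinase gene CRK40 (-2.23), CYP71B36 (-2.43), AT1G76240 (-2.76), AT1G06830 (-2.67), AT4G21870 (-2.45) and AT5G19190 (-2.19) complete the 15 largest falls. Of 83 lower genes, 13 were not well above background on either OE ABA array. AT3G46880, with the largest bound among them, read -8.07 and -7.21 against -2.67 and -3.26, a fall of at least 11.4-fold (adjusted p = 0.00578), and AT1G23660 and AT3G50190 fell by at least 6.35 and 5.43-fold. AT1G23660, AT3G50190 and AT2G21220 had a positive change with normexp background correction, where they were not called. Other falls nearly vanished in an alternative setting. The smallest log2 change over the settings was -0.19 for AT3G46880, -0.25 for bZIP3 and -0.16 for CYP71B36.

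**Figure D5:**
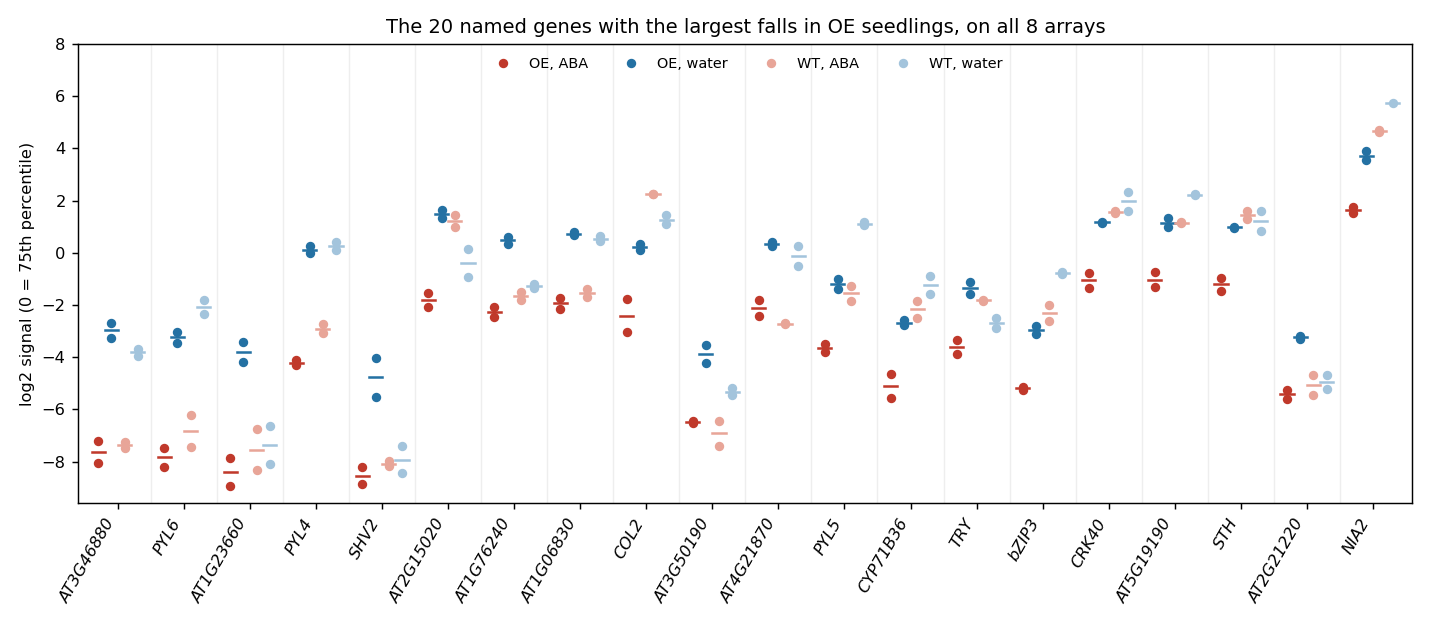
Relative log2 signal (vertical axis) of the 20 genes with the largest falls named by the fixed rule, with OE ABA left of OE water and then WT ABA left of WT water; each point is 1 array and each tick the mean of the group. In OE the 2 ABA arrays lie below the 2 water arrays for every gene shown, for example -3.05 and -1.77 against 0.11 and 0.35 for COL2. The rule required this lack of overlap.

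A root marker was among the called falls. SHV2 (COBL9), which root hairs need to elongate, read -8.87 and -8.22 on the OE ABA arrays, not well above background, against -5.51 and -4.03 on the OE water arrays, a fall of at least 3.27-fold (adjusted p = 0.0349). On the WT arrays it read -7.97 and -8.19 with ABA, against -7.41 and -8.44 in water. SHV2 was thus tested only because of OE water, the group where it was higher. PHT1;3, a phosphate transporter gene of the root, and AT5G62730, both chosen after their values were seen, were also called lower, with -8.64 and -7.94 against -4.56 and -5.86 for PHT1;3 and -7.11 and -4.82 against -1.66 and -1.26 for AT5G62730, which was well above background on 1 of the OE ABA arrays. With normexp background correction SHV2 and PHT1;3 had a positive change and were not called. Of the 10 root markers 7 were tested and SHV2 was the only one called, with a median change of -1.36. PHT1;1 differed by -3.29 (adjusted p = 0.348) and PYK10 by 0.88 (adjusted p = 0.666), while EXPA7, EXPA18 and IRT1 were not tested. The summed linear signal of the 10 markers, in units of the 75th percentile of the array, was 20.4 and 11.6 on the OE ABA arrays, against 12.8 and 7.86 on the OE water arrays, and 6 and 5 markers, against 8 and 7, were well above background. A linear sum gives the brightest markers most weight and does not stand for the markers as a group. The summed signals of the OE groups overlapped, while 6 of the 7 tested markers had lower means and only PYK10 a higher one. The part of the root markers in the repressed genes was not tested. In pooled seedlings fewer cells of a type and less RNA per cell cannot be told apart.

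The markers of other organs held no call. The 8 leaf markers were well above background on every array, with a summed linear signal of 1365 and 1644 on the OE ABA arrays, against 1640 and 1802 on the OE water arrays (median log2 change -0.18, none called by limma and 0 at an unadjusted p under 0.05 and 2-fold). The 7 flower markers summed to 0.625 and 2.18 in OE ABA, against 1.81 and 3.54 in OE water, and to at most 0.386 on the WT arrays. All 7 were well above background on each OE array, against 7 and 2 of them on the WT water arrays and 3 and 4 on the WT ABA arrays. Their median log2 change in OE was -0.86, with 6 of the 7 means lower with ABA. The summed signals of the OE groups overlapped and no flower marker was called by limma (0 at an unadjusted p under 0.05 and 2-fold). SEP3 differed most (-2.31, adjusted p = 0.363).

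Set beside WT, the OE response ran mostly in the same direction for the rises. In WT 259 probes (0.828%) were called, 183 higher and 76 lower, a comparison in which treatment and slide cannot be told apart. Of the 533 probes higher in OE, 126 (23.6%) were also called higher in WT, which is 68.9% of the 183 higher WT calls, and 456 (85.6%) had a higher WT mean, against 46.9% of all tested probes. Of the 112 lower probes, 11 (9.82%) were called lower in WT, 14.5% of the 76 lower WT calls, and 77 (68.8%) had a lower WT mean, against 53.1% of all. PYL4, PYL5 and PYL6 changed by -3.16, -2.67 and -4.77 in WT, HAI1 by 6.15, ABI2 by 2.89 and HB-7 by 2.82, all with the sign they had in OE. LTI30 changed by 1.47 in WT, CBF1 by 0.46 and RD26 by 1.22, which are smaller values than in OE. COL2 (0.97), TRY (0.87) and AT2G15020 (1.61) had the opposite sign in WT. TBL15, a gene of a family that acts in cell wall acetylation and chosen after its values were seen, was the 1 gene called in opposite directions, lower in OE (-1.49, adjusted p = 0.0358) and higher in WT (2.05, adjusted p = 0.0273), though with normexp its OE change was positive and not called.

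No difference between the OE and WT responses passed the test itself. The interaction held 0 calls among 31265 probes (2023 at an unadjusted p under 0.05 and 2-fold, smallest adjusted p = 0.0973), including TBL15 (adjusted p = 0.0973), so a call in OE that WT lacks is not shown to differ. With quantile normalization 9 probes passed, and without WT water replicate 2, 84. The levels themselves showed where OE and WT lay apart. For the probes higher in OE with ABA, OE minus WT had a median of 0.05 on the log2 scale with ABA and of -0.93 in water, against 0.02 and 0.00 over all probes. For the lower probes these medians were -0.90 with ABA and 0.08 in water. Of the 335 higher genes, 227 had both OE water arrays below the other 6 arrays (10.5% of all tested genes did), and 118 had both OE ABA arrays above the other 6 (6.13% of all). Of the 83 lower genes, 58 had both OE ABA arrays below the other 6 (7.06% of all), and 38 had both OE water arrays above the other 6 (15.1% of all). The OE arrays chose these genes, so the counts are descriptions, and slide and scan day differ between OE and WT.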

How the data were processed

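Seedlings of 2 genotypes, OE and WT, given ABA or water were each measured on 2 Agilent arrays of 1 dye. The deposited scanner output of each array holds spot intensity after the authors' image extraction, which subtracted the background and flagged outlier spots and spots well above background. The deposited series table holds log2 values of the same arrays with 1 common median (7.59), which followed the scanner signals with r between 0.9995 and 0.9999. Its sorted values differed by at most 0.0018 between arrays, as after quantile normalization. The series table was used as an alternative only, and is not a separate check from quantile normalization. The direction of both is that of signal, so none was open. The methods name MAS 5.0 and Welch's test.

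Processed signals, without outlier and control spots, were put on the log2 scale with no pseudocount, and the 75th percentile of each array was subtracted. A probe was tested if at least 1 of the 4 groups had it well above background on its 2 arrays, which left out 12338 of 43603 gene probes. The remaining 31265 were fitted with limma 3.58.1 (lmFit, eBayes) in R 4.3.3, as 4 group means over 8 arrays (residual degrees of freedom 4, prior 2.02), and p-values were adjusted over all of them by the Benjamini-Hochberg method. With 2 arrays a group, their number limits the precision. The p-values measure the spread between the arrays of a group, pooled over the 4 groups. The script recovered known changes in simulated data. Accessions of 34394 probes (78.9%) matched 25427 locus tags of the RefSeq table of TAIR10.1. A gene was read from its probe of highest mean signal.

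The genes named are the 15 largest rises and 15 largest falls called and well above background on all 4 OE arrays, 5 each way by the fold bound, called members of 40 gene lists (625 genes, 580 tested; every one where at most 6 were called, otherwise the 4 largest) and members a list is best known by. The largest rises and falls, by change or by bound, also had to be free of overlap between the OE groups. Other genes are said to be chosen after their values were seen. The lists and members were chosen with earlier results of these data known. Alternatives covered scaling, background, filters, array sets, blocks, thresholds and tests. Normexp used median spot signals, since mean signals were not in the files used here. No promoter sequences were given, so the planned motif search was not run.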

Additional observations from a re-analysis of the deposited data

How the results depend on the processing

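The number of probes called between OE ABA and OE water, 645, stayed within 1.5 times under quantile normalization (624), cyclic loess (690), the series table (611), both filters on OE arrays (529 and 694), outlier spots kept (643), slide as a random block (619), no minimum fold (685), the methods' t-test without adjustment (709) and a mean-variance trend (767). It was 117 with normexp background correction (114 higher, 3 lower), 288 with no filter on dim probes, 237 with only the 4 OE arrays, 2043 at an unadjusted p and 0 once the p-values of the methods' t-test were adjusted. Leaving out each array in turn gave 61 to 616. For WT, with 259 calls, the number was 28 with normexp, 90 without the filter, 541 with slide as a random block, 1818 at an unadjusted p, 442 and 0 with the methods' t-test before and after adjustment, and 9 to 199 with 1 array left out. A lone array of a group was assumed to vary like the other groups. For the interaction, with 0 calls, the number was 9 with quantile normalization and 9, the same probes, with the series table. It was 6 with cyclic loess, 2023 at an unadjusted p and 0 to 84 with 1 array left out. The cause of these differences was not tested beyond the fewer arrays or other probes that a setting itself uses.

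Replicate numbers were shared between groups but were not shown to pair samples (correlation of same-numbered deviations 0.09 in OE and -0.18 in WT). With the replicate number as a block, 1 probe was called in OE, 0 in WT and 0 in the interaction. Crossing the WT numbers in that block, a setting chosen after seeing the data, gave 317 calls in OE and 0 in WT.

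With normexp, where the median of all probes moved to 0.23 on the log2 scale, the OE change became positive for AT2G21220 (0.14), AT1G23660 (0.24), AT3G50190 (0.46), SHV2 (0.53), PHT1;3 (0.86), TBL15 (0.35) and LHY (0.74), and the cause was not tested. Of the 148 called genes that were named or in a list, 46 kept their call with normexp, 71 with only the 4 OE arrays and 23 without OE water replicate 2. The planned comparison of promoter motif shares was not run, as no promoter sequences were given. Signal over background limits the dim genes, for which only bounds are given. Those bounds do not hold under every alternative setting.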
